A study of Mus musculus with 12 samples.

Results

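The red cell genes Hba-a1, Hba-a2, Alas2 and Ank1 were followed through 3 cell populations sorted from the adult mouse dentate gyrus. They were chosen by name from the deposited expression table, in which they are 4 of 10749 listed genes, with their levels in these libraries already known. Their levels are therefore given as a description, with no test. Hba-a1, Hba-a2 and Alas2 were far higher in every niche library than in every stem or progenitor library. Ank1 ran the other way: it was detected in all 4 stem libraries and by a total of 1 read in the 4 niche libraries.

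All 3 populations came from 8-week-old mice that carry the LPA1-GFP transgene, in which green fluorescent protein (GFP) is made under the control of the gene for the lysophosphatidic acid receptor LPA1. The line, a stock on a mixed FVB/N and Swiss Webster background, had been brought into C57BL/6 by in vitro fertilisation. Stem libraries held cells positive for GFP, for the receptor EGFR and for the surface protein Prominin-1. Progenitor libraries held GFP-positive cells with any other combination of EGFR and Prominin-1, and niche libraries held cells negative for GFP, whatever their type. Each population had 4 libraries, numbered 1 to 4, each amplified from RNA of 1000 cells. The labels do not say whether the replicates were separate animals or pools, so the spread between libraries may be partly technical. Of the genes behind the sort, Egfr was in the table, at 24.7 to 38.6 scaled RPKM in stem libraries, 1.1 to 9.98 in progenitor libraries and 1.22 to 21.9 in niche libraries, and Lpar1 and Prom1 were not analysed here. Sox2, a stem cell and astrocyte transcription factor, was present in all 3 populations, at 38.6 to 65.2 scaled RPKM in stem libraries, 35.3 to 51.0 in progenitor libraries and 20.2 to 57.9 in niche libraries.

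Red cells carry oxygen on haemoglobin, a tetramer of alpha and beta globin chains that each hold a haem group. Hba-a1 and Hba-a2 are the adult alpha-globin genes, which lie side by side in the mouse. Alas2 is the red cell form of 5-aminolevulinate synthase, the enzyme that starts haem synthesis in the mitochondrion, and Ank1 is ankyrin-1, which ties the spectrin skeleton to the membrane of the red cell. Red cells of adult mammals have no nucleus, but the young ones, the reticulocytes, still hold globin and Alas2 RNA. None of these genes is a marker of the neural lineage, though ankyrin-1 is also made in neurons and muscle, and low levels of alpha-globin RNA have been described in neurons and glia.

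Levels are in RPKM, a read count corrected for exon length and for library size, divided by a factor (TMM, trimmed mean of M-values) that equalises the bulk of genes between libraries. Library totals ran from 7597256 to 22854036 reads. TMM factors lay between 1.11 and 1.24 in stem libraries, between 0.917 and 1.25 in progenitor libraries and between 0.418 and 0.958 in niche libraries. Niche 1, at 0.418, stood apart from the rest: alpha-globin reads made up 33% of it, and 8134817 reads were left for all other genes. The niche means of Hba-a1 and Alas2, and the differences of Hba-a1, Hba-a2 and Alas2 from niche, are given with and without niche 1. Niche means of other genes and the marker sums include it.

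The alpha-globin genes stood highest of the 4 and differed most between populations. Hba-a1 (ENSMUSG00000069919, GRCm38 chr11:32283511-32284465, plus strand) stood at 952, 296, 120 and 104 scaled RPKM in stem libraries 1 to 4. In progenitor libraries 1 to 4 it stood at 1542, 467, 290 and 264, and in niche libraries 1 to 4 at 491789, 83561, 17424 and 48856. The lowest niche library was above the highest library of either GFP-positive population, while stem and progenitor values overlapped. Hba-a1 averaged 368 ± 399 scaled RPKM in stem libraries, 641 ± 608 in progenitor libraries and 160407 ± 222566 in niche libraries (SD, n = 4 each), and its SDs were close to or above its means. Without niche 1 the niche libraries averaged 49947 ± 33082 (SD, n = 3).

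Hba-a2 (ENSMUSG00000069917, GRCm38 chr11:32296489-32297298, plus strand) followed its neighbour library by library. Stem libraries held 1093, 355, 141 and 119 scaled RPKM and progenitor libraries 1845, 542, 336 and 310, against 584842, 96656, 19722 and 57399 in niche libraries 1 to 4. The same library was highest in each population, replicate 1, and the groups parted in the same way as for Hba-a1. These values rest on many reads: the lowest count of Hba-a1 was 1254 (stem 4) and the highest 2026744 (niche 1).

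The reads cannot firmly separate the pair. Their coding sequences are each 429 bases long in the GENCODE M21 annotation of GRCm38 and are identical at 428, or 99.77%. The stretches around the single difference are shown because any read that lies elsewhere in the coding sequence fits both genes. The capital marks the difference, C381T, with positions counted from 1 at the first base of the start codon and Hba-a1 given first.
Hba-a1, chr11:32284313-32284373: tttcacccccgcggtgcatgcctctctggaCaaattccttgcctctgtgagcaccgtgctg
Hba-a2, chr11:32297130-32297190: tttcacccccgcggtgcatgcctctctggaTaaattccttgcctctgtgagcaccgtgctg
How the authors' counting shared out reads that fit both genes is not given in the sources used here. The ratio of Hba-a2 to Hba-a1 per length ran from 1.15 to 1.20 in stem libraries, from 1.16 to 1.20 in progenitor libraries and from 1.13 to 1.19 in niche libraries, a narrow band across levels that differed more than 1000-fold. In recovered reads the ratio was 0.943 to 0.985 in stem libraries, 0.952 to 0.983 in progenitor libraries and 0.930 to 0.977 in niche libraries. The pair is therefore described as a joint alpha-globin signal.

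On the log2(value + 1) scale, Hba-a1 differed by -0.99 ± 0.88 between stem and progenitor, by -8.30 ± 0.88 between stem and niche and by -7.31 ± 0.88 between progenitor and niche (± SE, from the spread pooled over the 3 populations). The differences from niche correspond to levels 314-fold lower in stem and 158-fold lower in progenitor than in niche libraries. For Hba-a2 the differences were -0.99 ± 0.89, -8.29 ± 0.89 and -7.30 ± 0.89. With no pairing of libraries by number, the gap between stem and progenitor was about the size of its SE, and it moved to -0.43 for Hba-a1 without progenitor 1 and to -1.64 without stem 1. Without niche 1, the Hba-a1 difference from niche was -7.48 for stem and -6.51 for progenitor libraries, or 178-fold and 91.3-fold, and that of Hba-a2 was -7.46 and -6.49.

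As a share of all reads, Hba-a1 and Hba-a2 together took 0.186%, 0.0532%, 0.0224% and 0.0200% of stem libraries 1 to 4. They took 0.228%, 0.0918%, 0.0574% and 0.0523% of progenitor libraries, against 33.0%, 10.9%, 2.62% and 6.81% of niche libraries. The Wilson 95% interval, which covers counting error only, was 0.0193% to 0.0208% for the lowest share (stem 4) and 32.97% to 33.03% for the highest (niche 1). Alpha-globin was thus well above the detection floor of 3 reads in every library, stem and progenitor included. In bulk libraries, fewer cells of a type and less RNA per cell cannot be told apart.

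The promoters of the 3 genes that moved together are shown as the 250 bases before the RefSeq start on GRCm38.p6, plus strand. RefSeq entries matched 3 of the 4 genes, Ank1 being the exception. Capitals mark short motifs found on either strand: GATAA (bound by GATA factors), CACCC (bound by Klf1-type factors), CCAAT and TATAA.
Hba-a1, chr11:32283422-32283671: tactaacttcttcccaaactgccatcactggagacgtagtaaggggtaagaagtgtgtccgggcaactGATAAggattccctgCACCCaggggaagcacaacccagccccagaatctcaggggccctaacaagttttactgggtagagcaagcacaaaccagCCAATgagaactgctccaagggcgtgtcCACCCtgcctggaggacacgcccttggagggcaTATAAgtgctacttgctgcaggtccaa
Alas2, chrX:150547167-150547416: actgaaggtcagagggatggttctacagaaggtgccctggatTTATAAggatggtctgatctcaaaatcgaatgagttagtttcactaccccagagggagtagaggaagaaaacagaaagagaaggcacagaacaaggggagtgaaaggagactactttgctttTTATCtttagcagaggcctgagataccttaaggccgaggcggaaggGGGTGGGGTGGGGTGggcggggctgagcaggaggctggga
The Hba-a2 window (chr11:32296242-32296491) is offset by 3 bases and identical to that of Hba-a1 over all 247 shared bases. The Hba-a1 window holds CACCC with its first base at positions -167 and -60 relative to the start, GATAA at -182, CCAAT at -88 and TATAA at -27. The Alas2 window holds 3 CACCC on the minus strand, written GGGTG, at -40, -35 and -30 and 1 GATAA on the minus strand, written TTATC, at -86. It also holds TATAA at -207 on the plus and at -208 on the minus strand, which overlap each other, and no CCAAT. Of 32851 promoter windows of this length, 52% hold CACCC on either strand, 22.6% GATAA, 33.8% CCAAT and 22.8% TATAA, so each match taken alone is common.

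**Figure D1:**
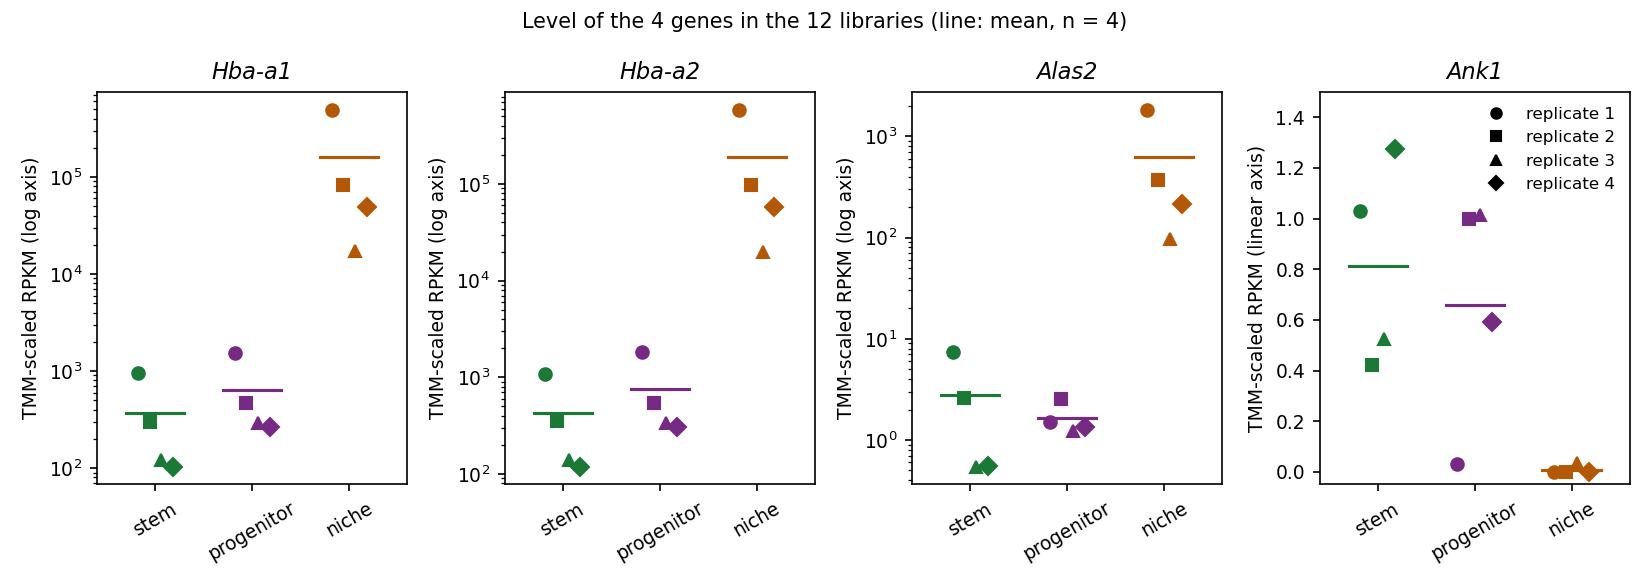
Level of Hba-a1, Hba-a2, Alas2 and Ank1 in scaled RPKM in the stem, progenitor and niche libraries; log axis for the first 3 genes and linear axis for Ank1, points are libraries with a symbol for each replicate number and lines are means of 4. The niche libraries lie above all others for the first 3 genes, with niche 1 at 491789 for Hba-a1, while Ank1 is at 0 or, in niche 3, 0.0352 there.

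Alas2 (ENSMUSG00000025270, GRCm38 chrX:150547375-150570638, plus strand) showed the same pattern at a lower level. It stood at 7.41, 2.58, 0.546 and 0.556 scaled RPKM in stem libraries 1 to 4 and at 1.52, 2.55, 1.24 and 1.35 in progenitor libraries. In niche libraries 1 to 4 it stood at 1826, 368, 96.9 and 213. The niche libraries were again all above the rest, and the stem and progenitor values were interleaved. These levels rest on 18 to 173 reads per stem library, 45 to 108 per progenitor library and 2646 to 20149 per niche library.

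Alas2 averaged 2.77 ± 3.24 scaled RPKM in stem libraries, 1.66 ± 0.60 in progenitor libraries and 626 ± 808 in niche libraries (SD, n = 4 each), or 226 ± 136 in niche libraries 2 to 4 (n = 3). On the log2 scale it differed by 0.16 ± 0.75 between stem and progenitor, by -6.88 ± 0.75 between stem and niche and by -7.04 ± 0.75 between progenitor and niche. Levels were 118-fold lower in stem and 132-fold lower in progenitor than in niche libraries, values that depend on the added 1 RPKM because Alas2 is low in both. With 4 RPKM added they were 55.6-fold and 62.0-fold, and with limma voom on the recovered reads 207-fold and 196-fold. Without niche 1 the differences to niche were -6.19 and -6.37. The stem value depends on stem 1: without it the difference between stem and progenitor was -0.35. The values of Alas2 fit an exon length of 2174 bases, against 2403 in the annotation. The gene lies inside the annotated span of Apex2, a DNA repair gene on the minus strand that is not analysed here, and the use of strand in counting is not given in the sources used here.

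The ratio of the haem synthesis enzyme to the globin varied less between niche libraries than either gene. Alas2 per 1000 RPKM of alpha-globin (Hba-a1 plus Hba-a2) was 3.62, 3.97, 2.09 and 2.49 in stem libraries 1 to 4 and 0.448, 2.52, 1.98 and 2.35 in progenitor libraries. It was 1.70, 2.04, 2.61 and 2.01 in niche libraries 1 to 4, over which Hba-a1 itself spanned 28.2-fold. This ratio averaged 3.04 ± 0.89 in stem libraries, 1.82 ± 0.95 in progenitor libraries and 2.09 ± 0.38 in niche libraries (SD, n = 4 each), and the populations overlapped. Progenitor 1 was the exception: it held the most alpha-globin of all GFP-positive libraries but only 45 Alas2 reads. Over the 12 libraries, Pearson's r of the log2 values of Alas2 with those of Hba-a1 was 0.981. The libraries fall into a niche and a GFP-positive cluster, so this r is largely set by the gap between them.

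**Figure D2:**
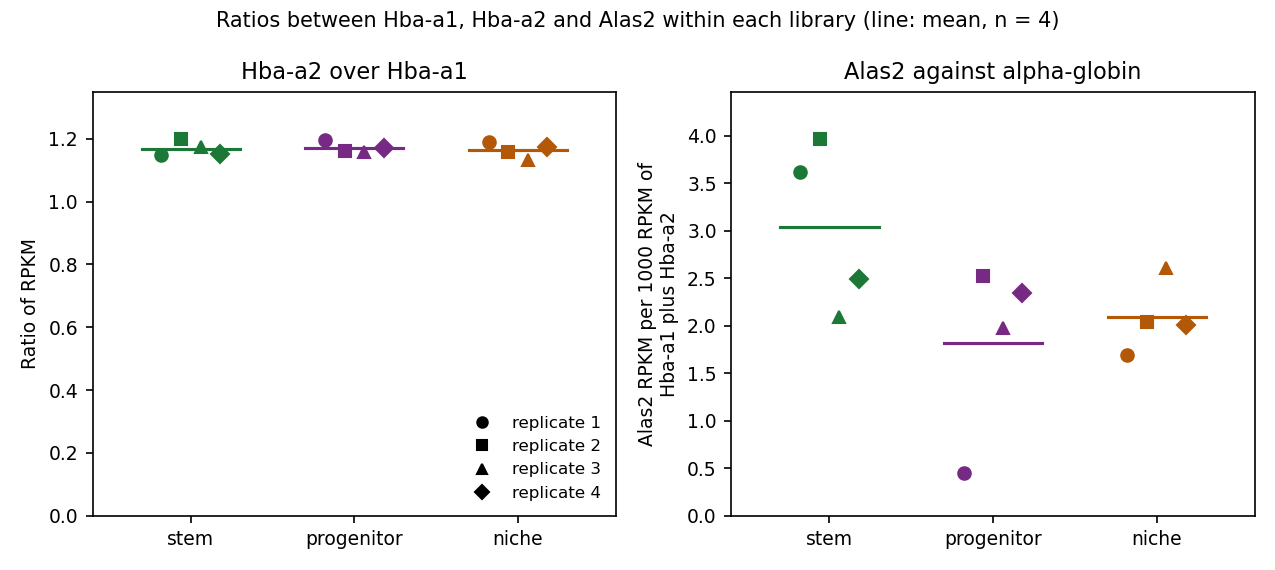
Ratio of Hba-a2 to Hba-a1 RPKM (left) and Alas2 RPKM per 1000 RPKM of alpha-globin (right) in each stem, progenitor and niche library; points are libraries and lines are means of 4. The left ratio stays between 1.13 and 1.20, and progenitor 1 lies lowest on the right at 0.448.

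The order of niche libraries was the same for Hba-a1, Hba-a2 and Alas2: niche 1, then 2, 4 and 3. The spread within the population was wide, from 17424 to 491789 scaled RPKM for Hba-a1. It depends on the scaling: on the deposited scale, without TMM factors, the niche values of Hba-a1 were 205577, 68554, 16696 and 42652 RPKM, a span of 12.3-fold. Both scales gave the same order of libraries.

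Ank1 (ENSMUSG00000031543, GRCm38 chr8:22974844-23150497, plus strand) does not share this pattern, so the name red cell gene does not describe how it varies here. Stem libraries 1 to 4 held 25, 11, 18 and 43 reads and progenitor libraries 1, 44, 57 and 38, against 0, 0, 1 and 0 reads in niche libraries. In scaled RPKM these are 1.03, 0.421, 0.525 and 1.28 in stem libraries and 0.0324, 0.998, 1.01 and 0.593 in progenitor libraries. Niche 3 stood at 0.0352, and the other niche libraries were at 0, where the floor of 3 reads would be 0.0841 to 0.262. All stem libraries were above all niche libraries, and progenitor 1 fell among the niche values.

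On the log2 scale, Ank1 differed by 0.15 ± 0.31 between stem and progenitor, by 0.82 ± 0.31 between stem and niche and by 0.67 ± 0.31 between progenitor and niche. At levels this low the added 1 RPKM compresses the difference. Reads pooled over the 4 libraries gave a level 74.2 times higher in stem than in niche libraries (97 reads against 1; exact 95% interval 13.0 to 2960) and 64.9 times higher in progenitor than in niche libraries (140 reads against 1; 11.5 to 2580). These intervals cover counting error only and not the spread between libraries. The values fit an exon length of 2260 bases, the smallest that gives whole reads, while the annotated exons of Ank1 add up to 13527. The deposited level may therefore rest on a part of the gene or on a shorter transcript model. Ank1 was not alone in this: 1209 genes had the annotated exon length and 9301 a length found from the values. Which exons were counted is not given in the sources used here. The span of Ank1 also holds Mir486, Mir3107 and 3 further annotated transcripts, none of them in the table.

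Read as counts over the 4 genes, 0 of 4 had populations that did not overlap between stem and progenitor, 4 of 4 between stem and niche and 3 of 4 between progenitor and niche. Over the table, populations did not overlap for 24.7%, 22.7% and 15.6% of 8360 tested genes in these comparisons. Because the 4 genes were chosen with their levels in the same libraries known, no inference is drawn from these counts.

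The other genes of the red cell programme give a mixed picture. The 8 further lists, covering globins, haem synthesis, iron, haem breakdown, membrane and skeleton, transcription factors, late enzymes and genes that flank the alpha-globin locus in mouse or human, name 162 genes beside the 4. The table held 69 of them and 65 were tested, so most of the programme, the beta-globin genes included, is not analysed here. Calls are from limma's empirical Bayes test with Benjamini-Hochberg adjustment over all tested genes. Between stem and niche, 7 were higher and 15 lower in stem libraries, or 33.8% called, beside 21.6% over all tested genes (10.9% higher and 10.7% lower). The 15 lower include Hbq1a and Hbq1b, which passed the filter only through niche and progenitor libraries. Between progenitor and niche, 2 were higher and 5 lower in progenitor libraries, or 10.8%, beside 11.5% over all tested genes (5.68% higher and 5.78% lower). Between stem and progenitor, 4 were higher and 4 lower in stem libraries, or 12.3%, beside 7.11% (3.71% higher and 3.4% lower). The median log2 fold change of the 65 genes was 0.08 between stem and progenitor, 0.06 between stem and niche and -0.16 between progenitor and niche, against -0.06, 0.09 and 0.15 over all genes. Direction depends on the scaling: with library size alone in place of TMM, which moves the median of all genes to 0.58 and 0.62 in the comparisons with niche, 20 were higher and 12 lower in stem than in niche libraries, and 7 higher and 3 lower in progenitor than in niche libraries. Over all genes TMM gave 910 higher and 896 lower calls in stem and 475 higher and 483 lower in progenitor against niche libraries, and library size alone 2017 and 586 in stem and 1525 and 314 in progenitor. Without niche 1 and progenitor 1, 63 pathway genes were tested. Of these, 28 were called between stem and niche, 16 between progenitor and niche and 17 between stem and progenitor. Beside them stood 2997, 1986 and 1116 calls among 8279 tested genes, so calls rose over all genes too.

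Of the other globins, Hbq1a and Hbq1b, theta-type genes of the alpha-globin cluster, had 0 reads in all 4 stem libraries. Progenitor libraries 1 to 4 held 56, 10, 3 and 0 reads of Hbq1a, against 0, 241, 54 and 15 in niche libraries. Hbq1b had 24, 5, 1 and 0 reads in progenitor libraries, against 0, 64, 43 and 95 in niche libraries. With the floor of 3 reads over the 4 stem libraries, Hbq1a was at least 135-fold and Hbq1b at least 88.0-fold lower in stem than in niche libraries. The bound was 49.6-fold for Hbq1a without niche 2 and 55.9-fold for Hbq1b without niche 4, the libraries with most of their reads. Both were called lower in stem, with limma's adjusted p = 0.0376 for Hbq1a and 0.02 for Hbq1b. Both genes passed the filter only through progenitor 1 and niche 2, 3 and 4. They were thus tested only because they are high outside stem, and no conclusion is drawn from these calls. The call of Hbq1a was lost in 6 of 15 alternatives (adjusted p from 0.00164 to 0.0801), among them leaving out any stem library, and how reads were shared within the pair is not known. Niche 1, the library with most alpha-globin, held no read of either.

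Icam4 and Tal1, both too low to test, were also at 0 in niche 1. Icam4, an adhesion protein of red cells, had 0, 8, 6 and 0 reads in progenitor libraries, against 0, 112, 1 and 37 in niche libraries, and none in stem libraries. Tal1, an early transcription factor of the lineage, had 2, 5, 0 and 0 reads in stem libraries and none in progenitor libraries, against 0, 0, 37 and 19 in niche libraries. Niche 2 and 4 held the most Icam4, and niche 3 and 4 the most Tal1. Neither gene passed the filter, so no test was made of these counts.

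**Figure D3:**
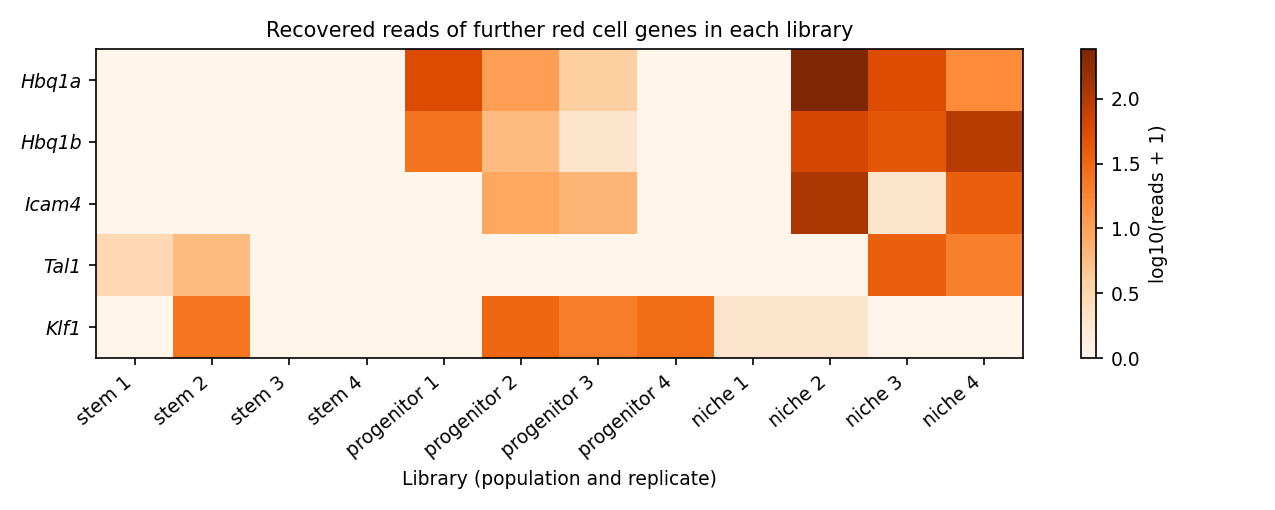
Reads of 5 further red cell genes in each library, as log10(reads + 1) by colour; columns are stem, progenitor and niche libraries 1 to 4. Stem libraries are empty for Hbq1a, Hbq1b and Icam4, and niche 1 holds at most 1 read of any of the 5 genes.

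In haem synthesis and transport, 2 of 7 tested genes were lower in stem than in niche libraries and 0 were higher, by limma's adjusted p, by unadjusted p and by voom. Cpox, coproporphyrinogen oxidase, averaged 6.09 ± 1.84 scaled RPKM in stem and 23.6 ± 11.5 in niche libraries (SD, n = 4 each), a log2 difference of -1.73 ± 0.42 (limma, adjusted p = 0.00791). Abcg2, an exporter of porphyrins that is also strong in brain endothelium, averaged 8.73 ± 2.31 in stem and 33.5 ± 14.3 in niche libraries (log2 difference -1.76 ± 0.41, adjusted p = 0.0061). Abcg2 was also lower in progenitor than in niche libraries (log2 difference -1.64 ± 0.41, adjusted p = 0.017), a call lost in 4 of 21 alternatives (adjusted p from 0.00641 to 0.071), among them library size alone and leaving out progenitor 3 or 4. In niche libraries 1 to 4 Abcg2 stood at 48.9, 42.3, 19.6 and 23.1 scaled RPKM, the order of alpha-globin. Without the TMM factors Abcg2 was highest in niche 2, so the shared order depends on the scaling. Alas1 and Fech, the housekeeping synthase and the last enzyme of the pathway, are not analysed here.

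Iron genes held few calls. Of 10 tested, ceruloplasmin (Cp), a ferroxidase, was the only call between stem and niche: it averaged 30.1 ± 22.5 scaled RPKM in stem and 7.59 ± 3.25 in niche libraries (log2 difference 1.68 ± 0.49, adjusted p = 0.0239). That call was lost in 5 of 21 alternatives (adjusted p from 0.00203 to 0.0883), among them leaving out stem 1, stem 2, niche 3 or niche 4. Between stem and progenitor Cp was also the only iron call (log2 difference 1.72 ± 0.49, adjusted p = 0.0464), lost in 11 of 21 alternatives (0.0144 to 0.184), among them leaving out any progenitor library, stem 1, 2 or 3 or niche 2 or 3. Tfrc, the transferrin receptor by which red cell precursors take up iron, averaged 14.7 ± 2.8 in stem libraries, 12.3 ± 2.9 in progenitor libraries and 14.1 ± 7.4 in niche libraries and was not called in any comparison.

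Of 7 tested genes that clear haemoglobin and haem, a task of macrophages, 2 were higher and 1 lower in stem than in niche libraries, and 2 were higher in stem than in progenitor libraries. Cd163, the receptor for haemoglobin bound to haptoglobin, averaged 84.7 ± 59.1 scaled RPKM in stem libraries, 2.69 ± 2.23 in progenitor libraries and 1.32 ± 1.17 in niche libraries (SD, n = 4 each). It differed by 5.11 ± 0.60 between stem and niche and by 4.54 ± 0.60 between stem and progenitor on the log2 scale (limma, adjusted p = 2.27e-05 and 0.000277). Hmox1, the enzyme that breaks haem down, averaged 112 ± 83.6 in stem libraries, 8.33 ± 5.23 in progenitor libraries and 34.9 ± 40.1 in niche libraries and was higher in stem than in progenitor libraries by 3.72 ± 0.75 (adjusted p = 0.00628). Blvrb, biliverdin reductase B, was the other gene higher in stem than in niche libraries (log2 difference 1.68 ± 0.56, adjusted p = 0.0424), a call lost in 14 of 21 alternatives (0.000184 to 0.135), among them leaving out any library but niche 1. Slc48a1, a haem transporter, went the other way, with 22.8 ± 2.0 in stem and 129 ± 87.8 in niche libraries (log2 difference -2.21 ± 0.47, adjusted p = 0.00346). In the same stem libraries the 8 macrophage markers of the table summed to 2526 to 9970 scaled RPKM, against 129 to 288 in progenitor libraries, and all 8 were called higher in stem than in progenitor libraries. The niche libraries summed to 3393 to 5845, with single markers on both sides. Mrc1 and Adgre1 were higher in stem than in niche libraries (log2 differences 5.07 and 2.86, limma adjusted p = 4.61e-06 and 0.00755), and Ctss and Trem2 were lower (-1.42 and -1.41, adjusted p = 0.0177 and 0.0155). The part of these cells in the values of Cd163 and Hmox1 was not tested.

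Among 11 tested genes of the red cell membrane, 4 were lower in stem than in niche libraries and 0 were higher by limma and by voom, with 1 higher at an unadjusted p below 0.05. Cd59a, which blocks complement at the cell surface, averaged 7.36 ± 4.22 scaled RPKM in stem and 70.4 ± 43.0 in niche libraries (log2 difference -3.09 ± 0.49, adjusted p = 0.000329). Bsg, basigin, the red cell carrier of the Ok blood group in humans and a partner of lactate transporters in endothelium, averaged 122 ± 40.7 in stem and 833 ± 532 in niche libraries (log2 difference -2.57 ± 0.66, adjusted p = 0.0111). Cd47, the signal that keeps red cells from being engulfed, was lower in stem than in niche libraries (log2 difference -1.61 ± 0.36, adjusted p = 0.00485), a call lost only with library size alone (adjusted p from 0.00103 to 0.104 over 21 alternatives). Tspan33, a tetraspanin, was the fourth (log2 difference -2.13 ± 0.62, adjusted p = 0.0234), and its call was lost in 6 of 21 alternatives (8.37e-05 to 0.0662), among them leaving out stem 1, 3 or 4 or niche 2 or 3. Between progenitor and niche, Bsg (log2 difference -2.70 ± 0.66, adjusted p = 0.0148) and Cd47 (-1.43 ± 0.36, adjusted p = 0.0183) were lower in progenitor libraries, and both calls were lost without progenitor 3 or 4. The Cd47 call was also lost with library size alone (adjusted p = 0.178). Cd59a was also lower in stem than in progenitor libraries (-1.74 ± 0.49, adjusted p = 0.0433), a call lost in 12 of 21 alternatives (0.00913 to 0.145), among them leaving out any progenitor library, stem 1, 2 or 4 or niche 2 or 4.

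Late red cell enzymes and maturation genes held the most calls, 6 lower and 2 higher in stem than in niche libraries among 15 tested. Bpgm, which makes the 2,3-bisphosphoglycerate that loosens oxygen from haemoglobin, stood at 21.7, 12.8, 17.2 and 18.3 scaled RPKM in stem libraries and at 285.9, 90.1, 40.01 and 73.7 in niche libraries 1 to 4. The log2 difference was -2.38 ± 0.46 (limma, adjusted p = 0.0017), and the niche libraries ran in the order of alpha-globin. Car2, carbonic anhydrase 2 of red cells and of oligodendrocytes, averaged 131 ± 61.8 in stem libraries, 1217 ± 449 in progenitor libraries and 1551 ± 646 in niche libraries. It was lower in stem than in niche libraries (log2 difference -3.61 ± 0.40, adjusted p = 1.4e-05) and than in progenitor libraries (-3.28 ± 0.40, adjusted p = 0.000166). The 9 oligodendrocyte markers of the table summed to 120 to 451 scaled RPKM in stem libraries, 1416 to 4469 in progenitor libraries and 1863 to 3650 in niche libraries, and their part in the Car2 values was not tested. Hagh, glyoxalase 2, and Gabarapl2, an autophagy protein, had log2 differences of -1.41 ± 0.37 and -1.35 ± 0.33 between stem and niche (adjusted p = 0.013 and 0.00915). Ypel4, linked to red cell shape in mice, and Fbxo7, a ubiquitin ligase subunit, had differences of -2.05 ± 0.59 and -1.65 ± 0.48 (adjusted p = 0.0206 and 0.0225). Both calls were lost in 4 of 21 alternatives, among them library size alone and leaving out stem 3, with niche 3 for Ypel4 and stem 4 for Fbxo7 besides. Pim1, a kinase, was higher in stem than in niche libraries by 1.97 ± 0.48 (adjusted p = 0.00799). Prdx2, the peroxidase of red cells and neurons, was higher in progenitor than in niche libraries by 1.42 ± 0.33 (adjusted p = 0.0109), opposite to alpha-globin. Its call between stem and niche (0.98 ± 0.33, adjusted p = 0.0444) was lost in 13 of 21 alternatives (0.00477 to 0.121), among them leaving out stem 1, 3 or 4, progenitor 2, 3 or 4 or niche 1, 3 or 4. Ube2l6, a conjugating enzyme, was lower in progenitor than in niche libraries (-2.03 ± 0.53, adjusted p = 0.0216), a call lost without progenitor 2, 3 or 4 and with only the 2 populations in the fit (adjusted p from 0.00475 to 0.0659 over 21 alternatives). Ypel4 and Gabarapl2 were also lower in stem than in progenitor libraries (-2.18 ± 0.59 and -1.20 ± 0.33, adjusted p = 0.033 and 0.0404), and each call was lost in 9 of 21 alternatives.

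Of 9 tested transcription factors, 0 were called between stem and niche by limma, 0 had an unadjusted p below 0.05 and 0 were called by voom. Klf1, the factor that switches on adult globin genes, had 0, 23, 0 and 0 reads in stem libraries and 0, 31, 20 and 27 in progenitor libraries, against 1, 1, 0 and 0 in niche libraries. Pooled reads gave 8.79 times more Klf1 in stem (exact 95% interval 2.17 to 76.95) and 18.1 times more in progenitor than in niche libraries (4.84 to 151.8), both for counting error only, and limma did not call it (adjusted p = 0.615 and 0.208). Lmo2, a partner of Tal1 that endothelium and macrophages also express, averaged 19.6 ± 13.2 scaled RPKM in stem libraries, 2.33 ± 0.65 in progenitor libraries and 16.7 ± 3.3 in niche libraries. It was higher in stem than in progenitor libraries by 2.48 ± 0.45 (adjusted p = 0.00286) and lower in progenitor than in niche libraries (log2 difference -2.42 ± 0.45, adjusted p = 0.0022). Gata2, Bcl11a, Lyl1, E2f2, E2f4, Mafk and Zbtb7a were not called in any comparison, and Tal1 and Zfpm1 were too low to test.

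The last list holds genes that flank the alpha-globin locus in mouse or human, and 5 were tested. Snrnp25, Mpg and Sh3pxd2b lie on chromosome 11 of GRCm38, 74.5, 50.8 and 63.4 kb from Hba-a1. Luc7l and Axin1, which flank the human locus, lie on chromosome 17 in the mouse and are not neighbours of Hba-a1 here. Of the 3 mouse neighbours, Sh3pxd2b was called between stem and niche, and of the other 2 genes Axin1 was. Both were higher in stem libraries, opposite to the globins. Axin1, a scaffold of Wnt signalling, averaged 5.40 ± 2.05 scaled RPKM in stem and 1.10 ± 1.35 in niche libraries (log2 difference 1.74 ± 0.51, adjusted p = 0.0236), a call lost without stem 3 or niche 2 (adjusted p from 0.00757 to 0.0774 over 21 alternatives). Sh3pxd2b, a scaffold of invasive cell protrusions, was higher in stem by 1.18 ± 0.39 and in progenitor by 1.34 ± 0.39 than in niche libraries (adjusted p = 0.0421 and 0.0368), calls lost in 12 and 9 of 21 alternatives, in both cases without progenitor 2, 3 or 4, among others. Over the 8 lists, 11 of the 22 calls between stem and niche, 2 of 7 between progenitor and niche and 4 of 8 between stem and progenitor held in all 21 alternatives. The stem against niche call of Hbq1b held in the 15 in which it was tested.

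**Figure D4:**
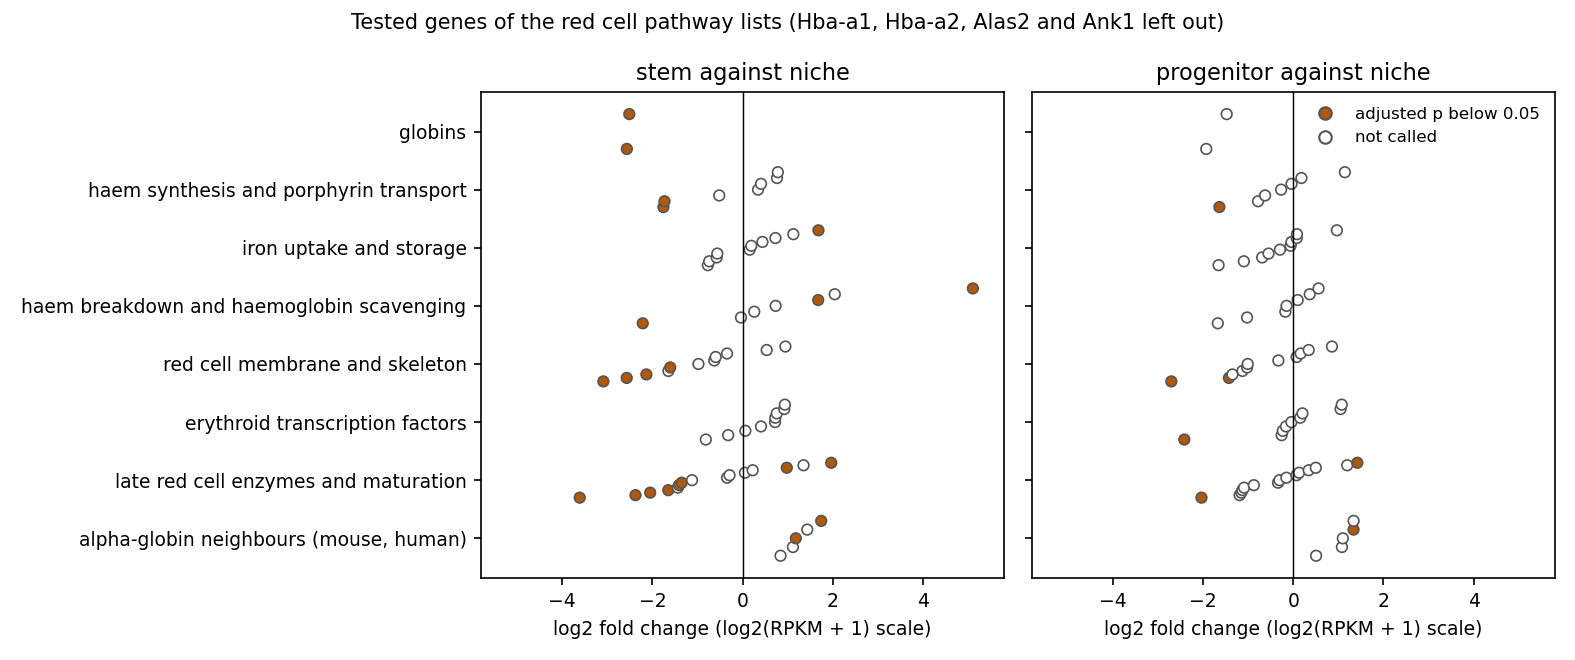
Log2 fold change of each tested gene of the 8 red cell pathway lists, stem against niche (left) and progenitor against niche (right); a point is a gene, filled where the adjusted p was below 0.05, and values below 0 mean lower in stem or progenitor. Points spread to both sides of 0, with 15 lower and 7 higher calls on the left and 5 lower and 2 higher on the right.

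After TMM scaling, niche 1, with most alpha-globin, also had the highest summed level of several marker lists, though single markers did not all follow. Endothelial markers, 8 in the table, summed to 25.7 to 67.3 scaled RPKM in stem and 69.4 to 119 in progenitor libraries, against 1094, 431, 310 and 218 in niche libraries 1 to 4. In niche 1 the sum was carried by Slc2a1 (598), Esam (216) and Cldn5 (215), and 4 of the 8 were highest there, while Tek (0.211) and Emcn (0.535) were lowest there. Of the 8, 5 were called lower in stem and 5 lower in progenitor than in niche libraries, and none was at 0 in all libraries of a population. Neuron markers, 9 in the table, summed to 46.1 to 98.4 in stem and 697 to 1756 in progenitor libraries, against 430, 597, 878 and 761 in niche libraries. In progenitor libraries the sum was mostly Tubb3 (mean 769.5) and Stmn2 (mean 232.3). Of the 9, 1 (Tubb3) was called higher and 4 lower in progenitor than in niche libraries, so the sum does not stand for the single markers. Astrocyte markers, 7 in the table, summed to 559 to 1147 in stem libraries, 3392 to 4872 in progenitor libraries and 4934 to 6545 in niche libraries, and 5 mural markers to 11.8 to 185 in stem libraries, 669 to 1643 in progenitor libraries and 559 to 1768 in niche libraries. Choroid plexus markers summed to 13.1 to 69.8 in stem and 77.9 to 480 in progenitor libraries, against 4124 to 9369 in niche libraries. Nearly all of that sum was Ttr, at 9365, 4106, 9178 and 6801 in niche libraries 1 to 4. Kl and Clic6 were highest in niche 3 and Prlr in niche 2. Neutrophil markers, 3 of 13 in the table, summed to 5.70 to 23.0 in stem libraries, 0.843 to 12.5 in progenitor libraries and 7.75 to 35.3 in niche libraries. In niche 1 that sum was all Csf3r (35.3), with S100a8 and Mpo at 0. Lymphocyte markers, 4 of 14, summed to 1.67 to 8.35 in stem libraries, 2.27 to 14.8 in progenitor libraries and 0.153 to 83.7 in niche libraries. The niche 1 sum was nearly all Nkg7, at 83.3 there and 0 in niche 2, 3 and 4. Cd79a ran otherwise, at 0, 11.7, 0 and 15.95 in niche libraries 1 to 4. The 6 platelet markers of the table summed to 1217 to 4698 in stem libraries, 40.1 to 135 in progenitor libraries and 50.4 to 623 in niche libraries, nearly all of it Pf4, which macrophages also make. The mural, choroid plexus, neutrophil, lymphocyte and platelet sums in scaled RPKM were each highest in niche 1 among niche libraries. This depends on the scaling, since the TMM factor of niche 1 (0.418) was the lowest. Without the factors, the mural, choroid plexus and neutrophil sums were not highest in niche 1. The part of these cells in the levels of the 4 genes was not tested.

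Genes were also ranked by their Pearson correlation with the 4 genes over the 12 libraries, as a description of libraries that share depth and scaling. Nearest to alpha-globin were Alas2 (0.981), Hacd2 (0.972), Skil (0.971), Klk8 (0.967) and Ckmt1 (0.966). Of the 10 nearest, 5 ranked the niche libraries in the order of alpha-globin by scaled RPKM. The TMM factors of niche 1, 2, 4 and 3 rose in that order (0.418, 0.820, 0.873 and 0.958). Dividing by them favours this order in any gene, so no conclusion is drawn from it. Nearest to Alas2 were Gfm2 (0.988), both alpha-globin genes (0.981 each), Adora3 (0.980) and Tmem255b (0.973). Gfm2 averaged 11.6 scaled RPKM in stem and 8.10 in progenitor libraries, against 240.7, 125.8, 67.4 and 109.1 in niche libraries 1 to 4. It kept the order on this scale only: without the TMM factors Gfm2 was highest in niche 2. Nearest to Ank1 were Wdr19 (0.966), Fbxo17 (0.962), Fv1 (0.951), Gm11944 (0.947) and Tia1 (0.946), all lower in niche than in the other libraries on average. Fv1 averaged 6.15 scaled RPKM in stem and 4.38 in progenitor libraries and 0.228 in niche libraries. The correlation of Ank1 with Hba-a1 was -0.799.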

How the data were processed

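RNA of sorted cells was measured in 12 libraries of 3 populations, 4 each, grouped by the sort markers in the labels. The deposited log2 values were read as log2(RPKM + 1). Undone, they gave whole reads for 100% of values above 0 (tolerance 1e-05 reads), with the smallest whole exon length that fitted every library. Library totals were 7597256 to 22854036 reads. For aligner, counter and strand use: not given in the sources used here. The build was GRCm38, per the submitters' processing notes. Names came from GENCODE M21 (10579 IDs matched) and promoters from RefSeq (GRCm38.p6).

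TMM factors were computed from the recovered reads. Genes with at least 10 reads per median library (a CPM of 0.767) in at least 4 libraries and 15 in all were tested: 8360 of 10749. limma 3.58.1 (R 4.3.3; trend, robust) was fitted to log2(TMM-scaled RPKM + 1) over all 12 libraries with 1 mean per population, and p-values were adjusted over all tested genes at 0.05. The added 1 RPKM understates changes of low genes. The fit was also run on simulated reads in which populations differed only in genes changed in stem. No simulated library was dominated by alpha-globin as niche 1 was, so that run cannot check the scaling. Tables and sequences used Python 3.11.15, numpy 2.4.6, pandas 2.3.3 and scipy 1.17.1.

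The 4 genes and all lists were chosen with earlier results of these data known. Beside the 4 genes, the text names called genes of the 8 pathway lists (up to the 6 with the largest change per list and comparison), the erythroid transcription factors in the table and up to 5 nearest genes by correlation. Tfrc, Icam4, Egfr, Sox2, the listed neighbours of the alpha-globin locus and single markers of other cells were named after their values were seen. Alternatives were library size alone, TMM without alpha-globin reads, pseudocounts of 0.1 and 4, no filter, each library left out, niche 1 and progenitor 1 left out, a replicate block, only the 2 populations compared, and limma voom on the recovered reads.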

Additional observations from a re-analysis of the deposited data

Results flagged for a closer look

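In 18 sets of 4 values (the 4 genes and 2 ratios in each population), 6 had a value farther from the rest than Dixon's 95% limit of 0.829 allows, where chance gives about 1 in 20. In niche 1, Hba-a1 stood at 491789, Hba-a2 at 584842 and Alas2 at 1826 scaled RPKM, far above the other niche libraries. In progenitor 1, Hba-a1 stood at 1542 and Hba-a2 at 1845 scaled RPKM, far above the other progenitor libraries. On the deposited scale, without TMM factors, and on the log2 scale, these gaps in niche 1 and progenitor 1 were all within the limit, and on the deposited scale Alas2 in progenitor 2 was above it. In niche 3, Ank1 stood at 0.0352 scaled RPKM, which is 1 read beside 3 libraries at 0. The Hba-a1 and Hba-a2 flags are read as a joint signal, since their reads cannot be firmly separated.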

How the results depend on the processing

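No called pathway gene changed sign, but with library size alone most pathway calls against niche were higher in stem and in progenitor (20 against 12 and 7 against 3), where TMM gave fewer higher than lower (7 against 15 and 2 against 5). The differences of Alas2 and Ank1 between stem and progenitor, each below its SE, changed sign in some alternatives (lowest -0.35 and -0.06). The differences of Hba-a1, Hba-a2 and Alas2 from niche kept their direction in every alternative: -9.09 to -7.48 for Hba-a1 in stem and -8.12 to -6.51 in progenitor, with the ends set by leaving out niche 3 and niche 1. Only Ank1 moved beyond its spread. With a pseudocount of 0.1, its differences were 0.54 (stem against progenitor), 2.97 (stem against niche) and 2.42 (progenitor against niche), with a pseudocount of 4 they were 0.26 and 0.21 against niche, and with voom 0.76, 4.55 and 3.79.

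Counts of called genes moved more. Without niche 1 and progenitor 1 they were 1116 (stem against progenitor), 2997 (stem against niche) and 1986 (progenitor against niche), and 17 and 16 for pathway genes between stem and progenitor and between progenitor and niche. With only the 2 populations compared they were 1421 between stem and progenitor and 539 between progenitor and niche, and 17, 13 and 4 for pathway genes in the 3 comparisons. Library size alone gave 1839 between progenitor and niche. With each library left out in turn, genes called ran from 355 to 1093, 1272 to 2489 and 535 to 1641, and pathway genes called from 4 to 14, 14 to 29 and 2 to 13. The cause was not tested. Same-numbered libraries did not deviate together (correlations from -0.128 to 0.206), so the numbers are not taken to pair them. For Hba-a1 the stem library was below the same-numbered progenitor library in 4 of 4 numbers (log2 differences -1.34 to -0.65), and the block gave -0.99 ± 0.33 (SE). The labels do not pair the libraries and Hba-a1 was chosen with its values known, so no conclusion is drawn from the smaller SE. With a replicate block, 607, 1814 and 947 genes and 9, 20 and 9 pathway genes were called. In an alternative chosen after seeing the data, leaving out Luc7l and Axin1, 8, 21 and 7 pathway genes were called. Depth limits Ank1 and the genes with few reads.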
